A study of Mus musculus with 51 samples.

Results

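The 40 mitosis genes described here encode the proteins that carry a cell from late G2 through spindle assembly, chromosome segregation and cytokinesis, and they were followed in the fetal mouse kidney over 48 h. They come from a list of known G2/M, spindle, kinetochore and cytokinesis genes. The list was drawn up by function, with earlier results of these data known, and its rule uses no measured value. All 40 listed genes were found among the 16099 genes of the expression table, and the mean of each over the 51 libraries was 10 or more, so that no member was lost to the filter on low values (14426 genes passed it). The lowest value of any of them in any library was 170.

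Kidneys of fetuses of the C57BL/6 strain were collected every 4 h at 13 time points, written CT0 to CT48 for the hour of the series. The sample titles call all libraries WT, and the labels name no transgene, drug or other treatment. CT0 is labelled embryonic day 18, CT24 embryonic day 19 and CT48 embryonic day 20, with the time points between them labelled by the hours since the last of these days. The design text of the series gives a later last age than the labels do. CT20 has 3 libraries and each of the other 12 time points has 4. The labels speak of biological replicates but name no dam, litter, fetal sex or number of kidneys per library. It is thus unknown whether the libraries of a time point are separate litters. The p-values below set each estimate against the spread that the fit leaves between these samples. Each library holds RNA of a whole organ. Fewer dividing cells and less mitotic RNA per cell cannot be told apart in it.

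Mitosis is driven by the kinase CDK1 bound to cyclin A2 and then to B-type cyclins. Aurora and Polo-like kinases build the spindle, kinetochores attach the chromosomes to it, the checkpoint kinases hold anaphase back until every chromosome is attached, and the anaphase-promoting complex then destroys cyclin B and opens the way to cytokinesis. Transcripts of these genes are low in resting and G1 cells and peak in G2 and mitosis, because the DREAM complex represses their promoters early in the cycle and the MuvB complex with B-MYB and FOXM1 activates them late. Many of these promoters carry a CHR (cell cycle genes homology region), a short element bound by the MuvB core, and CCAAT boxes bound by NF-Y. In the fetal kidney, dividing cells are found mainly in the outer nephrogenic zone, among nephron progenitors, ureteric tips, stroma and young nephrons, while tubule cells deeper in the organ leave the cycle as they mature.

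The promoters are described first, because the choice of members did not use them. RefSeq promoters of GRCm38.p6, from 250 bases before to 50 bases after each transcription start, were found for 35 of the 40 members. Ccna2, Aurkb, Foxm1, Kif20a and Tpx2 had no entry. The letters TTTGAA, the common CHR form, were searched on both strands, as were the letters CCAAT. The motifs can share at most 1 base and were counted separately. TTTGAA was present in 27 of the 35 members (77.1%), against 20.2% of the 27025 genes of the promoter table and 14.5% of the 11129 genes that were both in it and tested for expression. CCAAT was present in 28 of 35 members (80%), against 41.1% of all genes in the table. Both were present in 24 of 35 (68.6%), against 7.97% of all genes. Other mitosis genes outside the 40 carried these letters as well. TTTGAA was present in 13 of 24 other spindle genes (54.2%), and both motifs in 9 (37.5%). In 25 other kinetochore, centromere and checkpoint genes TTTGAA was present in 10 (40%), and both motifs in 8 (32%). Among 26 genes of DNA replication with a promoter entry, which peak earlier in the cycle, TTTGAA was present in 3 (11.5%) and CCAAT in 16 (61.5%). The rarer form TTCGAA was present in 3 members (8.57%), against 1.8% of all genes.

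Stretches from 150 bases before to 30 bases after the start are printed for 6 members, 5′ to 3′ in the direction of transcription, with matches of either motif on either strand in capitals. Cdk1 and Cdc20 stand for the usual pattern, Hmmr for the one with the most CCAAT boxes in this window among those printed, and Ube2c for a motif on the opposite strand, where TTTGAA reads as TTCAAA. Nuf2 and Nek2 lack TTTGAA, and they are printed because Nuf2 had one of the steepest falls of the series and Nek2 the flattest course in the second run of time points.
Cdk1: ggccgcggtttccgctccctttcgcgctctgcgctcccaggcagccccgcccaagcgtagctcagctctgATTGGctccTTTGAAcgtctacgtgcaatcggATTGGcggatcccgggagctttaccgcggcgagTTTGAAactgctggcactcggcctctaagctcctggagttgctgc
Cdc20: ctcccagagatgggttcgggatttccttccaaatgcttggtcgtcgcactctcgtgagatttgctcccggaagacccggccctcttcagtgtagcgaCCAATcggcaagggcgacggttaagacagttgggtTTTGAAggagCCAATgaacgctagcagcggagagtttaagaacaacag
Hmmr: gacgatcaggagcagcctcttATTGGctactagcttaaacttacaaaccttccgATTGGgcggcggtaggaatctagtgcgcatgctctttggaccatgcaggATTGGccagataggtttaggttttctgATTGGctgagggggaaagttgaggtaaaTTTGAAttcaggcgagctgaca
Ube2c: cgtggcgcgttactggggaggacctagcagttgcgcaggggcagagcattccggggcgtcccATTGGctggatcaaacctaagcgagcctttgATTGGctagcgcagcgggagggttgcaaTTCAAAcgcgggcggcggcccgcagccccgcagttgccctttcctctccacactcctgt
Nuf2: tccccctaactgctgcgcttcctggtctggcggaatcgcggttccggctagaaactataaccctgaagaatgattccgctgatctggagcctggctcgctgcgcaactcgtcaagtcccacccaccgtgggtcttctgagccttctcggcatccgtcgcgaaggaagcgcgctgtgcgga
Nek2: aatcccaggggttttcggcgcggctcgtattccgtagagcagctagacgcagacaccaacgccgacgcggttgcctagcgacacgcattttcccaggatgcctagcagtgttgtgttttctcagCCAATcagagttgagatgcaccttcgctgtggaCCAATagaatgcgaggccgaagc

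On GRCm38.p6 these stretches are chr10:69352883-69353062 (minus strand), chr4:118437314-118437493 (minus strand), chr11:40733408-40733587 (minus strand), chr2:164769779-164769958 (plus strand), chr1:169531435-169531614 (minus strand) and chr1:191821323-191821502 (plus strand). Each spans the upstream flank and the first transcribed bases of its gene. The Cdk1 stretch holds 2 TTTGAA and 2 CCAAT matches, Cdc20 holds 1 and 2, Hmmr 1 and 4, and Ube2c 1 and 2. Nek2 has 2 CCAAT matches there and no TTTGAA, and the Nuf2 stretch has neither, which says only that these letters are not in this window.

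TTTGAA lay close to the start in the members. A match began within 50 bases of the start in 26 of the 37 member promoters (70.3%), since 2 members have 2 entries, against 4.94% of all 32851 promoters. CCAAT matches were spread over the bases upstream, with 13 of 37 member promoters (35.1%) having one that began from 75 to 51 bases before the start, against 6.99% of all promoters. Both motifs are descriptions of letters, and no binding was measured in this series.

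**Figure D1:**
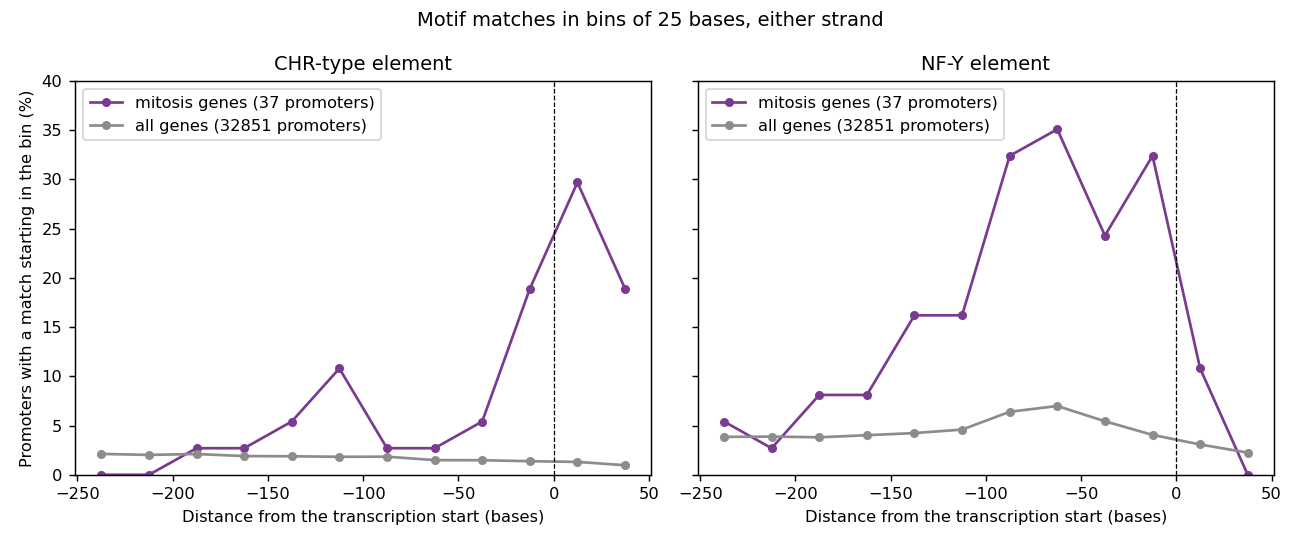
Share of promoters (y axis, %) with a match that begins in each bin of 25 bases, by distance from the transcription start (x axis, bases), for the CHR-type element (left) and the NF-Y element (right); purple, 37 promoters of mitosis genes; grey, all 32851 promoters. The CHR-type share of the mitosis genes is highest just after the start (29.7%) and the NF-Y share peaks upstream of it (35.1%), while the grey lines stay at or below 6.99%.

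The deposited values are whole numbers with nearly equal totals, as after normalisation, so they are called values here and not counts, and library depth is unknown. The totals ran from 34226024 to 35711911 per library. Library identifiers are numbered in one series for CT0 to CT24 (27 libraries) and in another for CT28 to CT48 (24 libraries). The means of these 2 runs were nearly equal gene by gene, with an SD of the log2 ratio of 0.032 over 12264 genes, so a change between CT24 and CT28 cannot be read from the table and each run was analysed alone. The median SD within a time point was 0.0745 on the log2 scale in the first run and 0.136 in the second over all tested genes, and 0.0752 and 0.124 over the mitosis genes. CT28 and CT32 stood apart from the other 11 time points on the first principal component, at 23.02 to 43.17 against -32.29 to 8.44. The first-run libraries lay at -7.90 to 8.44. CT44 and CT48 lay beyond them at the opposite end, at -32.29 to -16.60 and -32.19 to -17.81, with CT40 at -19.16 to -6.97. Kidney markers were abundant in the libraries, with means over the 51 libraries of 42691 for the proximal tubule receptor Lrp2, 24078 for the loop of Henle transporter Slc12a1, 18825 for the podocyte protein Podxl and 2422 for the nephron progenitor factor Six2.

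In GENCODE M21 (GRCm38) the 40 genes lie on 16 chromosomes and all are protein-coding. Cdk1 lies at chr10:69335146-69352938, Mki67 lies at chr7:135689784-135716361, Ube2c lies at chr2:164769898-164778822, and 2 members with unlike courses, Nuf2 and Nek2, share chromosome 1, at chr1:169497934-169531464 and chr1:191821444-191833050. Per kilobase of exon, the mean level over the 51 libraries ranged over the members from 125.4 for Cdkn3, a phosphatase that acts on cyclin-dependent kinases, to 1592 for Ccnb2, which encodes cyclin B2. The next highest levels per kilobase were those of Cdc20 at 1417, Ccna2 at 1293 and Mki67 at 1216, and the median over the 40 members was 421. Exons of 7 members overlap exons of another gene of the table (Ccna2, Cdca8, Nusap1, Cdc20, Ube2c, Prc1 and Kif20a). The use of strand in assigning reads was not stated, so these 7 may include reads of their neighbours.

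From CT0 to CT24, which are the same hour of the day 1 day apart, every one of the 40 mitosis genes fell. All 40 passed the test (limma on log2(value + 1), Benjamini-Hochberg adjusted p under 0.05 over 14426 genes), while 12.2% of all genes tested fell. The members' differences had a median of -0.29 on the log2 scale and lay between -0.42 (Bub1) and -0.18 (Kif23), and the median over all genes was 0.0011. In 38 of the 40 genes all 4 CT24 libraries lay below all 4 CT0 libraries, against 13.2% of all genes, and the ranges met in Cdkn3 and Cenpf. CT0 was the highest of the 7 time points in all 40 genes. CT24 was the lowest in 34, CT8 in 3 and CT12 in 3.

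Among the 8 genes of the CDK1 group (median difference -0.28), Cdk1 had values of 4044, 4191, 4249 and 4198 in the CT0 libraries and 3585, 3286, 3379 and 3398 in the CT24 libraries. These ranges did not meet, and Cdk1 fell by 0.29 ± 0.036 (SE, adjusted p = 7.99e-07). Ccna2, the cyclin A2 that partners CDK1 at mitotic entry, had 5642, 5937, 5834 and 5828 at CT0 and 5047, 4473, 4627 and 4569 at CT24. It fell by 0.31 ± 0.041 (SE, adjusted p = 2.07e-06), again without overlap. The B-type cyclins fell by 0.36 ± 0.046 (Ccnb1) and 0.24 ± 0.044 (Ccnb2). Foxm1, the forkhead factor that activates many of the other members late in the cycle, had the smallest difference of the group. It went from 2150, 2433, 2310 and 2342 at CT0 to 2094, 1889, 2000 and 2016 at CT24 and fell by 0.21 ± 0.051 (SE, adjusted p = 0.00325), without overlap. It did not pass without replicate 2 (adjusted p = 0.107). Ccnf, the F-box protein cyclin F, fell by 0.22 ± 0.062 and Melk, a kinase of dividing cells, by 0.35 ± 0.043. Cdkn3, whose ranges met, fell by 0.28 ± 0.083 (SE, adjusted p = 0.0126).

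The 3 mitotic kinases of centrosome and spindle fell by 0.33 ± 0.059 (Aurka), 0.26 ± 0.068 (Plk1) and 0.24 ± 0.053 (Nek2, which splits the centrosomes before mitosis). Aurka, the centrosomal Aurora kinase, had 1371, 1324, 1433 and 1455 at CT0 and 1239, 1041, 1075 and 1096 at CT24. Plk1 had 1735, 1856, 1843 and 1993 at CT0 and 1638, 1441, 1576 and 1536 at CT24. In both, every CT24 library was below every CT0 library. Without replicate 2 of each time point the Plk1 difference was -0.23 with an adjusted p of 0.0882.

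Checkpoint and chromosomal passenger genes had a median of -0.34 over 6 genes, and differences between roles were not tested. Bub1, a checkpoint kinase at the kinetochore, had the largest difference of the 40 in size. Its values were 2077, 1988, 2003 and 2064 at CT0 and 1616, 1448, 1541 and 1477 at CT24, and it fell by 0.42 ± 0.045 (SE, adjusted p = 8.87e-08). Bub1b, which encodes the checkpoint protein BUBR1, had 3256, 3492, 3236 and 3479 at CT0 and 2961, 2576, 2718 and 2710 at CT24, and fell by 0.30 ± 0.051 (SE, adjusted p = 6.87e-05). Birc5 encodes survivin, which brings the passenger complex to the centromere. It read 2156, 2159, 2209 and 2158 at CT0 and 1885, 1558, 1782 and 1740 at CT24 and fell by 0.32 ± 0.05 (SE, adjusted p = 1.80e-05). None of these 3 genes overlapped between the time points. Ttk (the checkpoint kinase MPS1), Aurkb (the kinase of the passenger complex) and Cdca8 (its subunit borealin) fell by 0.35, 0.33 and 0.34.

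At the kinetochore, Nuf2 and Ndc80, subunits of the NDC80 complex that grips microtubule ends, fell by 0.38 ± 0.061 and 0.37 ± 0.047. Nuf2 had 1827, 1750, 1768 and 1661 at CT0 and 1510, 1284, 1283 and 1300 at CT24, so that all CT24 libraries were lower. Cenpe, the kinetochore kinesin, had 3226, 3163, 3084 and 3109 at CT0 and 2749, 2650, 2556 and 2330 at CT24, also without overlap, and fell by 0.29 ± 0.05 (SE, adjusted p = 6.84e-05). Cenpf, a large protein of the outer kinetochore, read 4105, 4001, 3725 and 3683 at CT0 and 3717, 3318, 3176 and 2970 at CT24. Here 1 CT24 library lay inside the CT0 range, and Cenpf fell by 0.24 ± 0.067 (SE, adjusted p = 0.00972). It did not pass without replicate 2 (adjusted p = 0.0836) or without replicate 4 (adjusted p = 0.0588). Cenpa, the histone H3 variant of centromeres, fell by 0.26 ± 0.046.

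The 6 spindle genes lay close together, between -0.32 and -0.27. Tpx2, which activates Aurora A on the spindle, had 4220, 4371, 4300 and 4471 at CT0 and 3786, 3290, 3404 and 3402 at CT24. Kif11, the kinesin that pushes the spindle poles apart, had 4255, 4536, 4368 and 4491 at CT0 and 3840, 3543, 3770 and 3505 at CT24. Both were lower in every CT24 library. Kif2c (a kinesin that takes microtubules apart), Nusap1 (a microtubule bundler), Hmmr and Aspm (a spindle pole protein) fell by 0.32, 0.29, 0.31 and 0.28.

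The genes grouped under anaphase were Cdc20, Ube2c and Cdca3. Cdc20, the activator of the anaphase-promoting complex in mitosis, had 2621, 2958, 3133 and 3022 at CT0 and 2416, 2337, 2429 and 2485 at CT24. Ube2c, the ubiquitin-conjugating enzyme of that complex, had 3099, 3449, 3199 and 3196 at CT0 and 2701, 2332, 2618 and 2788 at CT24. Cdc20 and Ube2c fell by 0.28 ± 0.054 and 0.31 ± 0.065 with no overlap, and Cdca3 fell by 0.35 ± 0.042.

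The 6 cytokinesis genes had a median of -0.25. Racgap1, which forms the centralspindlin complex with the kinesin Kif23, read 4140, 4432, 4277 and 4305 at CT0 and 3639, 3249, 3563 and 3584 at CT24 and fell by 0.29 ± 0.039 (SE, adjusted p = 2.58e-06). Its partner Kif23 had 2633, 2598, 2573 and 2714 at CT0 and 2502, 2162, 2336 and 2279 at CT24 and fell by 0.18 ± 0.047 (SE, adjusted p = 0.00416). Kif20a, a kinesin of the central spindle, had 3419, 3698, 3637 and 3730 at CT0 and 3102, 2708, 2970 and 3032 at CT24. These 3 genes did not overlap between CT0 and CT24, and Kif23 did not pass without replicate 2 (adjusted p = 0.0651).

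Mki67 encodes Ki-67, the coat protein of mitotic chromosomes that pathologists stain to count cycling cells. Its values were 13444, 13902, 13046 and 13429 at CT0 and 12341, 10810, 11002 and 10763 at CT24, and it fell by 0.26 ± 0.049 (SE, adjusted p = 1.66e-04). Top2a, the topoisomerase that untangles sister chromatids, went from 10770, 11564, 10775 and 11049 at CT0 to 9479, 8300, 8699 and 8517 at CT24 and fell by 0.34 ± 0.05 (SE, adjusted p = 1.07e-05). Depdc1a had 866, 818, 857 and 837 at CT0 and 706, 633, 667 and 584 at CT24 and fell by 0.39 ± 0.067 (SE, adjusted p = 8.34e-05). All 3 were separated between the time points.

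**Figure D2:**
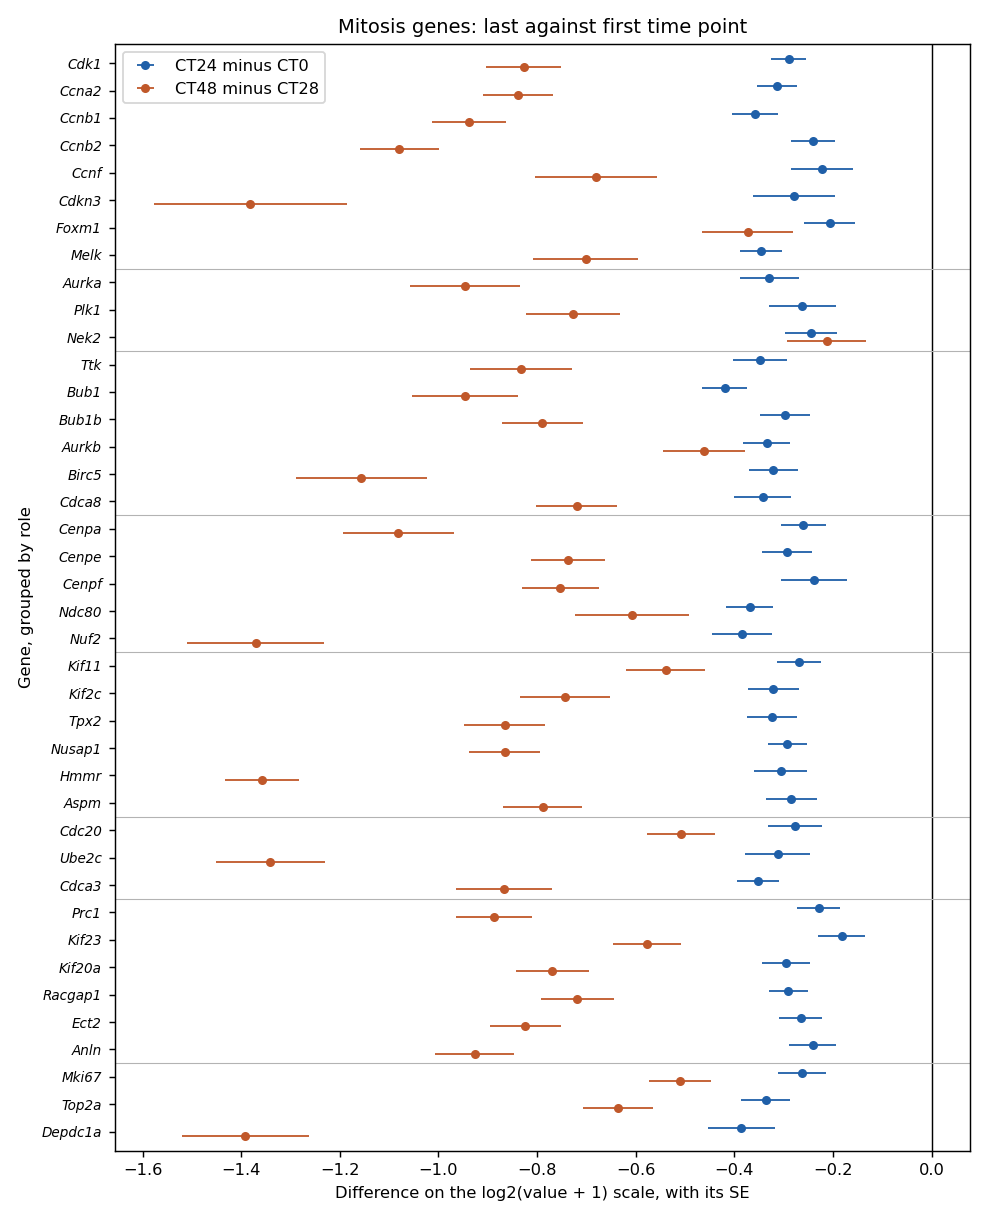
Difference on the log2(value + 1) scale (x axis) for the 40 mitosis genes grouped by role (y axis), CT24 minus CT0 in blue and CT48 minus CT28 in orange; bars are the standard error of the limma fit, 4 libraries a time point. All points lie below 0, and the orange points spread from -1.39 (Depdc1a) to -0.21 (Nek2) while the blue ones stay between -0.42 and -0.18. The orange contrast covers fewer hours than the blue one, and its ends are not the same hour of the day.

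The fall from CT0 to CT24 was not spread evenly over the day. The mean over the 40 genes stood 0.17 above its first-run mean at CT0, 0.0479 above it at CT4 and -0.0754 from it at CT8. It lay between -0.0174 and 0.0201 from CT12 to CT20, and at -0.128 at CT24. A straight line through the 7 time points had a median slope of -0.21 per 24 h and passed in 34 of the 40 genes, against 10% of all genes tested. This count rests on the ends of the run, at 5 genes without CT0 and 12 without CT24, and was 2 when the spread was taken from all 51 libraries. The CT24 against CT0 difference held in 37 genes in that last fit, and the 3 that did not pass there include Foxm1.

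Single steps of 4 h passed in few genes of the first run. At CT4 against CT0 1 gene fell (Bub1, by 0.20 ± 0.045 (SE, adjusted p = 0.0399)), against 0.153% of all genes. At CT8 against CT4 3 fell (Ccnb2, Melk and Ndc80), against 1.02%. No member changed at CT12 against CT8 or CT16 against CT12, where 2.09% and 0.499% of all genes fell. At CT20 against CT16 1 member fell (Depdc1a), against 4.53%, and at CT24 against CT20 3 fell (Cdk1, Melk and Cdca3), against 1.03%. In CT8 the library of replicate 4 was the highest of the 4 in 38 of the 40 genes, with a mean over the genes of 11.17 on the log2 scale against 10.96 to 11.01 in the other 3. Without that library alone 19 genes fell from CT4 to CT8, and 16 without replicate 4 of every time point. Of all genes, 232 changed in either direction at this step in the main fit. The number was 399 without CT8 replicate 4 and 302 without replicate 4 of every time point.

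In the second run, from CT28 to CT48, all 40 genes fell again, with a median difference of larger size. This contrast covers fewer hours than CT24 against CT0. Its ends, 4 h after embryonic day 19 and at embryonic day 20, are not the same hour of the day. CT48 was below CT28 in all 40 by the test, against 28.1% of all genes, with a median difference of -0.81. All 4 CT48 libraries lay below all 4 CT28 libraries in each of the 40 genes, against 25.7% of all genes. CT28 was the highest time point of the run in 39 genes and CT40 in 1 (Nek2), and the lowest was CT48 in 31, CT36 in 7 and CT44 in 2. The differences ranged from -1.39 for Depdc1a to -0.21 for Nek2. This contrast starts at CT28, which with CT32 stands apart from the later time points over all genes. From CT40 to CT48 the median difference was -0.43 with 36 genes lower, against 7.39% of all genes, and from CT36 to CT48 it was -0.13 with 6 lower and 1 higher, against 7.17% and 6.74%.

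**Figure D3:**
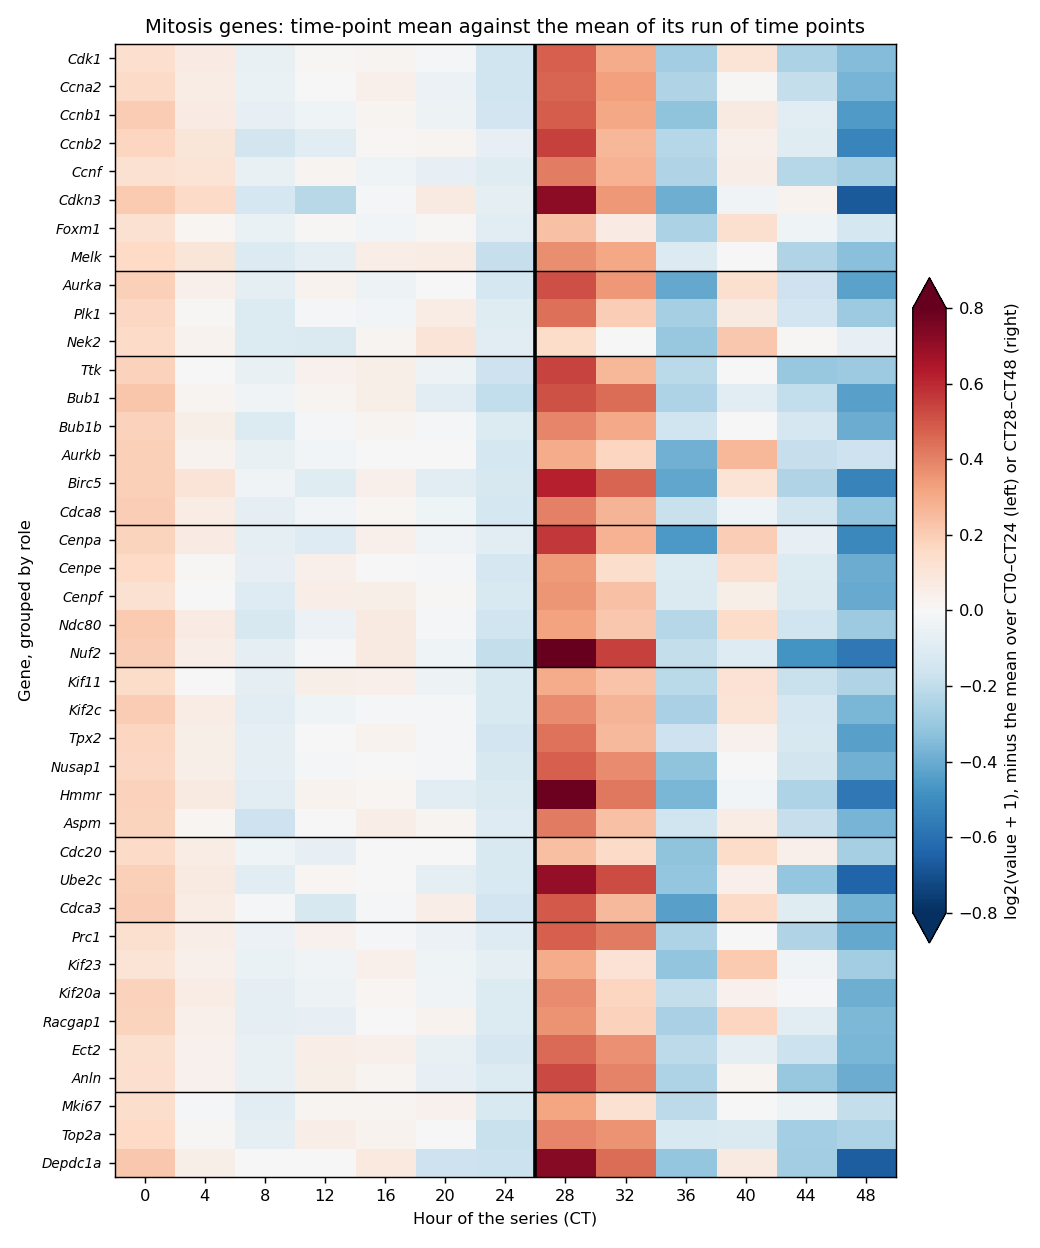
Time-point means of the 40 mitosis genes (rows, grouped by role) at the 13 time points (columns, hour of the series), on the log2(value + 1) scale as the difference from the gene's mean over CT0 to CT24 (left of the black line) or CT28 to CT48 (right of it); red is above and blue below. Most rows are red at CT0, and at CT28 and CT32, pale or red again at CT40, and blue at CT24, CT36 and CT48, and the 2 sides of the line are each set to a mean of 0.

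The course of the second run had a fall, a partial return and a second fall. Cdk1 had 5660, 5498, 5066 and 4932 at CT28, 4582, 4109, 5196 and 4792 at CT32 and 3409, 3008, 3144 and 2958 at CT36. It then read 4228, 3744, 4096 and 4310 at CT40, 2909, 2920, 3457 and 3518 at CT44 and 2951, 3179, 2633 and 3177 at CT48. The 4 CT36 libraries were thus below all CT32 and all CT40 libraries. Averaged over the 40 genes, the level relative to the run's own mean was 0.453 at CT28, 0.285 at CT32, -0.261 at CT36, 0.0608 at CT40, -0.159 at CT44 and -0.379 at CT48.

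The step from CT32 to CT36 had the lowest median of the 5 steps of the run. All 40 genes fell, with a median of -0.50, against 19.1% of all genes, and 37 had no overlap between the time points, against 16.9% (Cdkn3, Foxm1 and Ttk overlapped). Birc5 had the largest difference in size. It went from 2254, 2203, 3220 and 2843 to 1707, 1229, 1362 and 1380 and fell by 0.88 ± 0.13 (SE, adjusted p = 2.89e-05). Ube2c followed, from 3924, 3496, 4218 and 4343 to 2581, 2071, 2084 and 2251 and fell by 0.83 ± 0.11 (SE, adjusted p = 5.87e-06). Aurka went from 1478, 1306, 1655 and 1742 to 925, 868, 853 and 1001 and fell by 0.75 ± 0.11 (SE, adjusted p = 1.12e-05). Cenpe had the smallest difference, with 2902, 2802, 3499 and 3040 at CT32 and 2469, 2491, 2507 and 2795 at CT36 (-0.25 ± 0.075, adjusted p = 0.00994).

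From CT36 to CT40, 27 of the 40 genes rose and none fell, with a median of 0.33. Of all genes 8.47% rose and 9.27% fell. In 28 members every CT40 library lay above every CT36 library, against 9.41% of all genes. The 3 kinases of centrosome and spindle and the 3 genes grouped under anaphase (Cdc20, Ube2c and Cdca3) all rose. So did 5 of 6 cytokinesis genes, 5 of 8 of the CDK1 group and 4 of 6 spindle genes. Of the kinetochore genes 3 of 5 rose, and of the checkpoint and passenger group 2 of 6. Aurkb, the passenger kinase, rose by 0.65 ± 0.083 (SE, adjusted p = 7.42e-06), from 1498, 1479, 1461 and 1250 to 2125, 2312, 2100 and 2386. Cenpa rose by 0.66 ± 0.11 (SE, adjusted p = 3.28e-04) and Cdca3 by 0.59 ± 0.098 (SE, adjusted p = 2.04e-04). Kif23 had 2108, 1874, 2019 and 1829 at CT36 and 2536, 2731, 2704 and 3374 at CT40 and rose by 0.53 ± 0.07 (SE, adjusted p = 1.05e-05).

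The members differed in how far they came back. Top2a had 9795, 8666, 9000 and 8656 at CT36 and 8534, 8968, 8942 and 9822 at CT40, a difference of 0.01 ± 0.071 (adjusted p = 0.967), which is 1.23% of its preceding fall on the log2 scale. Nuf2 regained 12.3% (adjusted p = 0.697) and Bub1 22.8% (adjusted p = 0.330). Aurkb, Foxm1, Kif23 and Nek2 regained over 100% of it, with Nek2 at 174%. These shares have no test of their own. CT40 replicate 4 was the highest CT40 library in 33 of the 40 genes. Without that library alone 17 genes rose in place of 27, with a median of 0.26, and without any other single library of CT36 or CT40 20 to 29 rose. Without replicate 4 of every time point 14 rose (19 to 22 without each of the other numbers), with a median of 0.25. Of all genes, 2559 changed in either direction at this step in the main fit. The number was 1907 without CT40 replicate 4 and 1606 without replicate 4 of every time point.

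**Figure D4:**
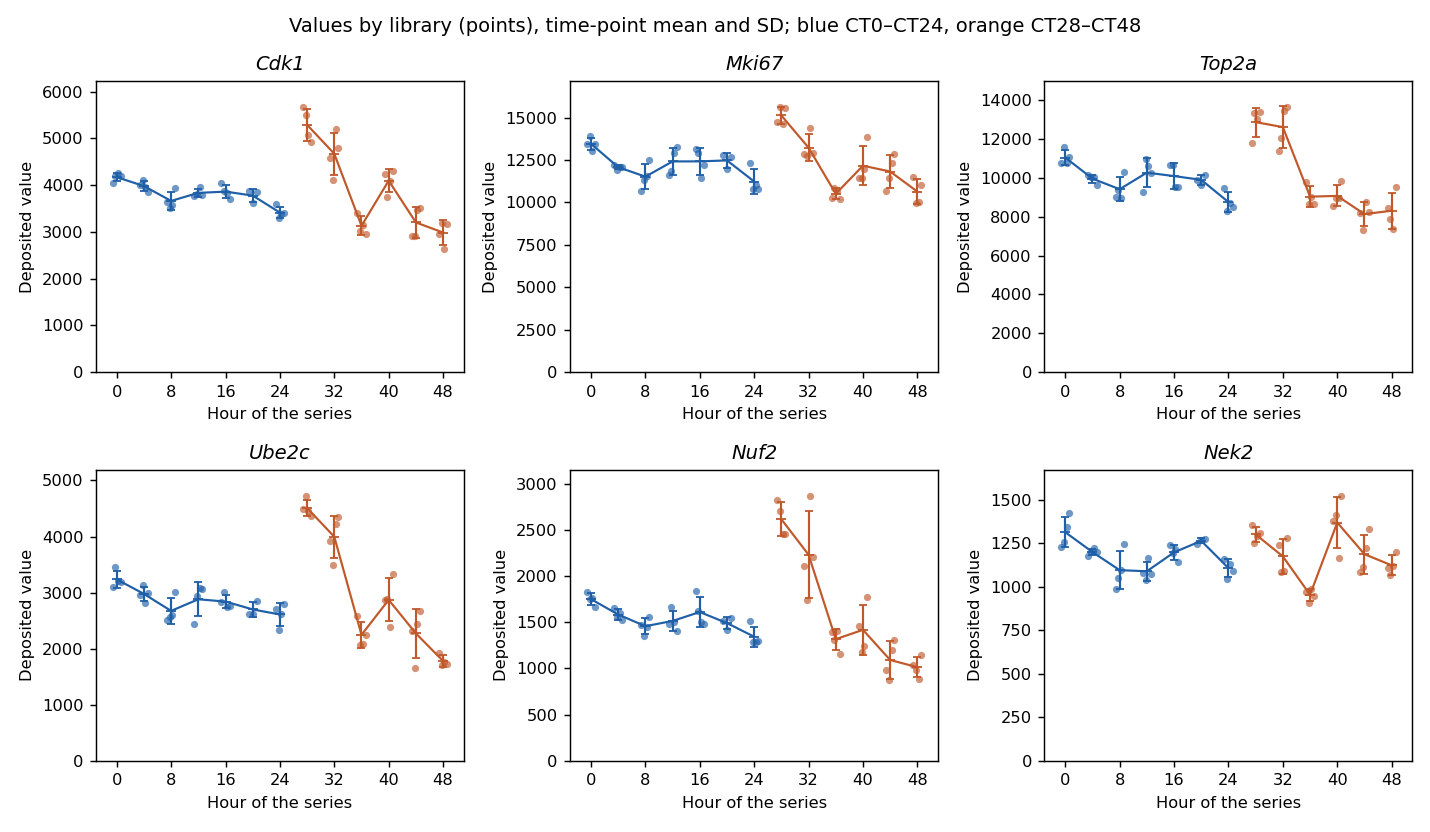
Deposited value (y axis, from 0) by hour of the series (x axis) for 6 mitosis genes; points are libraries, lines join the time-point means and bars are the SD (3 libraries at CT20, 4 elsewhere), CT0 to CT24 in blue and CT28 to CT48 in orange. Cdk1, Ube2c and Nek2 dip at CT36 and are higher at CT40, where Nek2 has its highest mean of the run (1370.5), while Top2a stays level from CT36 (9029) to CT40 (9066).

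The other steps of the second run passed in few members. From CT28 to CT32 1 gene fell (Hmmr, by 0.36 ± 0.075 (SE, adjusted p = 0.0393)), against 0.0208% of all genes. From CT40 to CT44 3 fell (Cdk1, Aurkb and Anln), against 0.506%, and from CT44 to CT48 4 fell (Ccnb1, Ccnb2, Cdc20 and Kif20a), against 0.111%. Aurkb fell by 0.45 ± 0.083 (SE, adjusted p = 0.00716) at the first of these and Ccnb2 by 0.43 ± 0.08 (SE, adjusted p = 0.0263) at the second. Estimates were below 0 in 39 and 37 of the 40 genes, most of which did not pass.

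Over the whole second run the CDK1 group had a median difference of -0.83 between CT28 and CT48. Ccna2 went from 7405, 7362, 6830 and 7122 at CT28 to 4084, 4128, 3710 and 4141 at CT48 and fell by 0.84 ± 0.072 (SE, adjusted p = 4.26e-10). Cdk1 fell by 0.83 ± 0.076 (SE, adjusted p = 1.24e-09). Cdkn3, the lowest member per kilobase, fell by 1.38 ± 0.20 (SE, adjusted p = 1.16e-06). The B-type cyclins fell by 0.94 ± 0.075 (Ccnb1) and 1.08 ± 0.08 (Ccnb2). Foxm1 fell least in the group. Its values were 2619, 2433, 2379 and 2535 at CT28 and 1935, 2133, 1588 and 2082 at CT48, and it fell by 0.37 ± 0.093 (SE, adjusted p = 0.00119).

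Nek2 stood at one end of the members. It had 1354, 1253, 1291 and 1310 at CT28, 1380, 1413, 1167 and 1522 at CT40 and 1109, 1066, 1119 and 1203 at CT48, and fell by 0.21 ± 0.08 (SE, adjusted p = 0.0266) from CT28 to CT48. That call was lost in 7 of the alternative settings, among them quantile normalisation and leaving out CT28 replicate 1, CT48 replicate 1 or CT48 replicate 2. Its fellow kinases fell by 0.95 ± 0.11 (SE, adjusted p = 6.56e-08) for Aurka, from 1748, 1985, 1476 and 1743 at CT28 to 1103, 916, 708 and 904 at CT48, and by 0.73 ± 0.096 (SE, adjusted p = 3.25e-07) for Plk1, from 2157, 2187, 2063 and 2455 at CT28 to 1356, 1334, 1144 and 1536 at CT48.

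At the other end were Depdc1a, Cdkn3, Nuf2, Hmmr and Ube2c, each with a difference of -1.34 or below. Depdc1a went from 1187, 1213, 1176 and 1220 at CT28 to 533, 441, 343 and 537 at CT48 and fell by 1.39 ± 0.13 (SE, adjusted p = 1.36e-09). Nuf2 went from 2831, 2711, 2462 and 2462 at CT28 to 1043, 982, 883 and 1149 at CT48 and fell by 1.37 ± 0.14 (SE, adjusted p = 2.37e-08). Ube2c went from 4492, 4719, 4457 and 4367 at CT28 to 1925, 1702, 1768 and 1725 at CT48 and fell by 1.34 ± 0.11 (SE, adjusted p = 9.97e-10). In all 3 the highest CT48 library was far below the lowest CT28 library. Hmmr, a microtubule-associated protein of the spindle, fell by 1.36 ± 0.075 (SE, adjusted p = 2.85e-13), from a mean of 2776 ± 162 (SD, n = 4) to 1083 ± 65.3 (SD, n = 4).

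The checkpoint and passenger genes ranged from -1.16 (Birc5) to -0.46 (Aurkb). Birc5 went from 3311, 2944, 2708 and 2677 at CT28 to 1352, 1417, 995 and 1497 at CT48. Bub1 went from 2496, 2351, 2363 and 2670 at CT28 to 1320, 1227, 1074 and 1542 at CT48 and Bub1b from 3459, 3933, 4090 and 3806 at CT28 to 2365, 2048, 2080 and 2352 at CT48. The time points did not overlap in any of them, and they fell by 1.16 ± 0.13 (SE, adjusted p = 1.69e-07), 0.95 ± 0.11 and 0.79 ± 0.082. Of the kinetochore genes, Cenpa fell by 1.08 ± 0.11, Cenpf by 0.75 ± 0.078, Cenpe by 0.74 ± 0.075 and Ndc80 by 0.61 ± 0.12. Cenpf had 4239, 4448, 4450 and 4666 at CT28 and 2875, 2571, 2320 and 2831 at CT48, and Cenpe had 3542, 3650, 3396 and 3447 at CT28 and 2246, 2134, 1920 and 2124 at CT48.

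The remaining roles behaved alike in direction. Kif11 went from 4837, 4978, 4848 and 4755 at CT28 to 3818, 3308, 2877 and 3424 at CT48 and Tpx2 from 4980, 5157, 5014 and 5312 at CT28 to 3007, 2758, 2592 and 2884 at CT48, and they fell by 0.54 ± 0.08 and 0.87 ± 0.082. Cdc20 had 3055, 3207, 3109 and 3068 at CT28 and 2071, 2509, 2064 and 2129 at CT48 and fell by 0.51 ± 0.068 (SE, adjusted p = 4.30e-07). Among the cytokinesis genes Anln, which encodes the contractile ring scaffold anillin, had the largest difference in size (-0.93), followed by Prc1, the bundler of midzone microtubules (-0.89), Ect2, which activates RhoA at the cleavage furrow (-0.82), Kif20a (-0.77), Racgap1 (-0.72) and Kif23 (-0.58). Racgap1 had 5036, 4960, 4528 and 4753 at CT28 and 2916, 2926, 2569 and 3347 at CT48. Kif20a had 4081, 4279, 3996 and 4001 at CT28 and 2271, 2314, 2337 and 2692 at CT48, and Kif23 had 3214, 2858, 2877 and 3026 at CT28 and 1976, 2160, 1876 and 2015 at CT48. Mki67 and Top2a, the most abundant members by value, fell by 0.51 ± 0.063 (SE, adjusted p = 1.32e-07) and 0.64 ± 0.071 (SE, adjusted p = 2.61e-08). Mki67 had 14734, 15593, 14621 and 15540 at CT28 and 11500, 9985, 10029 and 11031 at CT48.

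The straight line over the second run sloped down in 39 of the 40 genes, against 30.7% of all genes, with a median slope of -0.87 per 24 h. Nek2 did not pass (-0.09 ± 0.13, adjusted p = 0.587). The slopes of the second run were steeper than those of the first in 36 genes by the test of their difference, against 29.8% of all genes lower, with a median difference of -0.68 per 24 h. Nek2 (0.03), Foxm1 (-0.18), Cdc20 (-0.21) and Aurkb (-0.25) did not pass it. Both counts rest on CT28 and CT32 together, since without these 2 time points 1 gene had a line that passed and 1 a difference of lines that passed, and the median slope was -0.34 per 24 h. CT28 and CT32 also stood apart over all genes, with CT44 and CT48 at the opposite end of the first principal component. How much of the members' fall moves with this was not tested.

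**Figure D5:**
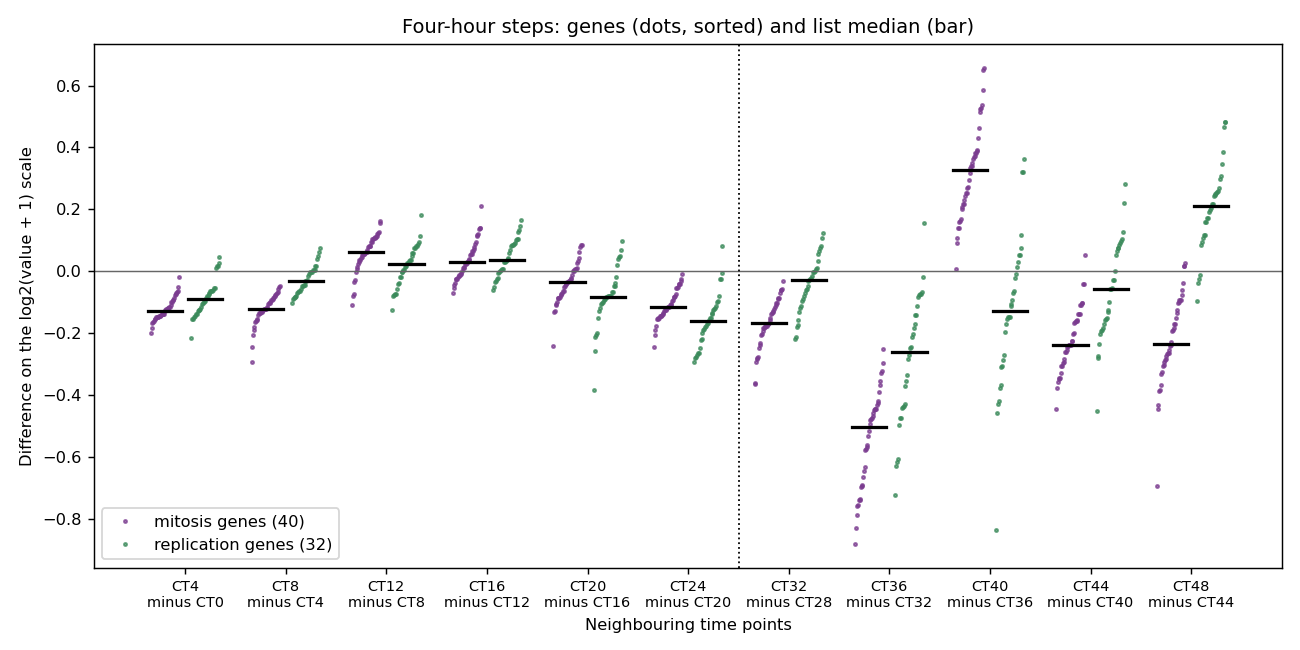
Difference between neighbouring time points (x axis) on the log2(value + 1) scale (y axis) for the 40 mitosis genes (purple) and 32 genes of DNA replication (green), dots sorted by size, black bars the list medians; the dotted line separates the runs of time points. Mitosis genes sit lowest at CT36 minus CT32 (median -0.50) and highest at CT40 minus CT36 (median 0.33), where the replication median is -0.13.

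Genes of the same process outside the 40 were counted from lists of known function. Of 29 other kinetochore, centromere and checkpoint genes tested, 26 fell and none rose from CT0 to CT24 (median -0.28), and 26 fell from CT28 to CT48. Of 28 other spindle genes, 25 fell and none rose (median -0.25), and 24 fell and 2 rose from CT28 to CT48. Of 15 condensin and cohesin genes 13 fell, of 12 genes of mitotic entry 8, of 11 other cytokinesis genes 6 and of 19 anaphase genes 11, with none higher. Some genes stand in both the spindle and the cytokinesis list, so these counts are not separate. The anaphase list holds subunits of the anaphase-promoting complex, which are not confined to dividing cells, and its median was -0.14. Of 21 genes of the MuvB, DREAM, E2F and NF-Y families, which control these promoters, 10 fell and 1 rose from CT0 to CT24 (median -0.08), against a median of 0.0011 over all genes.

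DNA replication genes, which act earlier in the cycle, fell from CT0 to CT24 in 31 of 32, with a median of -0.31 beside -0.29 for the mitosis genes. Pcna, the sliding clamp of DNA polymerases, had a mean of 5812 at CT0 and 4763 at CT24, and Mcm6, a subunit of the replicative helicase, 7045 and 6054. From CT32 to CT36 19 of the 32 fell (median -0.26). At the next step, where 27 mitosis genes rose, 9 replication genes fell and 2 rose (median -0.13). From CT44 to CT48 the replication median was 0.21, with 1 gene passing as higher, and the mitosis median -0.23, with 4 passing as lower. Over CT28 to CT48, 17 replication genes fell and 1 rose (median -0.25). The difference between the lists was not tested.

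Of 6 tested inhibitors of cyclin-dependent kinases, which halt the cycle, 1 fell and 1 rose from CT0 to CT24. Over all genes tested 12.2% fell, and the share that rose is not given here, so these counts are not read as a result about the list. Cdkn1c, the most abundant of them, which marks podocytes and cells leaving the cycle, had means of 20969.5 and 17061, a difference of -0.30 ± 0.052 (adjusted p = 7.66e-05). Cdkn1a had a difference of 0.44 ± 0.06 (adjusted p = 4.59e-06).

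Markers of kidney cell types moved over the same hours. From CT0 to CT24, 6 of 11 nephron progenitor genes fell and 2 rose, with the summed level of the list at 23359 to 24011 over the CT0 libraries and 21938 to 23168 over the CT24 libraries. Of 8 cortical stroma genes 4 fell and none rose (31348 to 32096 and 28512 to 30604). Of 12 proximal tubule genes 10 rose and none fell (121822 to 136354 and 174402 to 196107), and all 5 tested genes of the loop and distal tubule rose. Of 8 ureteric tip genes 2 rose (17567 to 18839 and 18633 to 19199). Eya1, a factor that keeps nephron progenitors undifferentiated, fell by 0.45 ± 0.05 (SE, adjusted p = 1.37e-07). In the second run its mean was 1781 at CT28 and 2114 at CT48. More abundant progenitor genes went both ways from CT0 to CT24. The mean of Itga8 went from 5882 to 6919, that of Sall1 from 7033.5 to 6481 and that of Six2 from 2617.5 to 2174.5. Among the other cells of the organ, 5 of 7 collecting duct genes, 4 of 6 podocyte genes, 3 of 6 endothelial genes and 3 of 5 macrophage genes rose, and 1 podocyte gene fell. Of genes of tissues outside the kidney, 2 of 6 liver genes rose, 1 of 6 skeletal muscle genes fell and none of 3 adrenal genes passed. Of all genes tested 12.2% fell from CT0 to CT24. The share that rose is not given here, so the counts of rises have no base rate beside them. No gene of these lists was at 0 in all libraries of CT0 or of CT24. The part of these shifts in the fall of the mitosis genes was not tested.

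In the second run the summed proximal tubule level was 116494 to 144698 at CT28, 145769 to 180638 at CT32, 157346 to 184559 at CT36, 126490 to 161889 at CT40 and 154899 to 195412 at CT48. The sum over loop and distal tubule genes was 35262 to 40389 at CT32, 42311 to 48231 at CT36 and 31950 to 38620 at CT40, so that it was higher at CT36, without overlap, where the mitosis genes were lower. The ureteric tip sum was 15282 to 16924 at CT32, 18545 to 19559 at CT36 and 17760 to 21784 at CT40, and the collecting duct sum 21987 to 25056, 25088 to 30334 and 24765 to 31498. Both separated from CT32 to CT36, upward, and overlapped from CT36 to CT40. Macrophage genes separated likewise at the first of these steps, at 3498 to 4046 and 4085 to 4881. The nephron progenitor sum was 22394 to 23681 at CT32 and 22725 to 23830 at CT36, ranges that overlap. This sum hides unlike courses of its genes. The most abundant, Sall1 and Itga8, had higher means at CT36 (6404 and 7002, 5966 and 7098). Six2 (2753.5 and 2364) and Eya1 (1674 and 1616) had lower ones. Erythroid genes, a sign of blood in the organ, summed to 6595 to 8146 at CT28, 8884 to 9478 at CT32, 6201 to 7641 at CT36 and 4501 to 4984 at CT40. Most of that sum is the transferrin receptor Tfrc, which dividing cells of other kinds express as well, and the erythroid factor Gata1 was at 0 in all CT36 libraries. Skeletal muscle genes were low, at 315 to 1137 at CT36 and 274 to 2629 at CT40. How these levels bear on the mitosis genes was not tested.

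The series title names the circadian clock, and a 24 h rhythm was tested over all 51 libraries with a line and a step between the runs. It passed in 1 of the 40 genes, against 12.3% of all genes. This was Nek2, with an amplitude of 0.16 ± 0.033 on the log2 scale (adjusted p = 0.00371) and a fitted peak 20.4 h after CT0. In the first run its means were 1315 at CT0, 1200.5 at CT4, 1096 at CT8, 1090.2 at CT12, 1199 at CT16, 1265 at CT20 and 1108 at CT24. In the second run they were 1302 at CT28, 1176 at CT32, 955 at CT36, 1370.5 at CT40, 1188 at CT44 and 1124 at CT48. The highest means of the runs were thus at CT0 and CT40, and neither CT20 nor CT44, the hours nearest the fitted peak, was the highest of its run. The libraries read 1249, 1272 and 1274 at CT20 and 1085, 1114, 1222 and 1333 at CT44. The next smallest adjusted p was that of Cdc20 (0.0988, amplitude 0.11 ± 0.038). The median amplitude over the 40 genes was 0.06, beside 0.07 over all genes. Without replicate 3 of every time point no member passed. With separate weights for the noisier second run 12 did, and the share of all genes that passed in that fit is not given here.

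The authors' deposited table of rhythm tests gives a combined q under 0.05 for 25 of the 40 genes, against 41.3% of all its genes. In the authors' deposited table the fitted period was 28 h in 39 of the 40, against 32.5% of all genes, and 28 h is the longest period that any gene has there. Nek2 has a period of 20.7 h and a combined q of 0.215 in the authors' deposited table. By the separate methods in the authors' deposited table, 24 of the 40 members passed JTK, against 44.6% of all genes, and 2 passed Lomb-Scargle, against 14.2%. The median relative amplitude there was 0.111 for the 40 genes and 0.0673 for all genes, and the smallest combined q was that of Prc1 (8.81e-05).

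Members with and without TTTGAA were set side by side. The difference of their medians was not tested, and the set without TTTGAA includes Bub1, which carries the rarer form TTCGAA. From CT0 to CT24 the 27 genes with TTTGAA had a median difference of -0.28 and the 8 without it -0.33. From CT28 to CT48 the medians were -0.79 and -0.90, and the range of the 8 (-1.37 to -0.21) held Nuf2 at one end and Nek2 at the other. These are the 2 promoters printed above without TTTGAA, which were chosen for the courses of their genes.

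Libraries of one time point tended to be high or low in many mitosis genes at once. CT24 replicate 1 was the highest of its 4 in 36 of the 40 genes, CT44 replicate 2 the lowest in 32, CT48 replicate 3 the lowest in 33 and CT12 replicate 1 the lowest in 30. At CT0 the mean over the 40 genes ranged from 11.25 to 11.29 on the log2 scale between libraries, at CT32 from 11.24 to 11.51 and at CT44 from 10.75 to 11.07. The 40 genes are therefore not 40 separate observations of a time point, and the counts above share the same 4 libraries at each end.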

How the data were processed

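RNA was measured in 51 libraries of fetal mouse kidney at 13 time points (poly-A selected RNA, per the labels' protocols). The tools bcl2fastq, STAR 2.5.2b and featureCounts 1.5.0-p3 and the genome build mm10 are named per the submitters' processing notes. The deposited expression table, named for counts by the authors, holds whole numbers whose totals are nearly equal in all libraries, so they were handled as a normalised score, and no count test was used. For the normalisation, the annotation and the handling of strand, nothing is stated in the sources used here. The authors' deposited rhythm table gives p-values and q-values (JTK, Lomb-Scargle and combined) with amplitudes on the scale of the deposited score, per the file headers.

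Genes with a mean of at least 10 were tested with limma 3.58.1 (R 4.3.3, trend and robust options) on log2(value + 1), so that folds of low genes are understated, with Benjamini-Hochberg adjustment over 14426 genes and a threshold of 0.05. CT0 to CT24 and CT28 to CT48 were fitted separately. The difference of their slopes (per 24 h) and a 24 h rhythm used all 51 libraries. The script was tested on simulated data. Values by library are given for the 2 members of each role with the highest mean and for the 3 steepest and 3 flattest slopes of each run, and otherwise for members singled out after their values were seen (Aurkb and Hmmr). Of the other gene lists, only genes among the 4 with the highest mean are named, except Gata1. Gene positions, exonic lengths and overlaps come from GENCODE M21 (GRCm38), promoters from RefSeq GRCm38.p6. No columns of the expression table were left unmapped. Depth is unknown, so no counting interval is given.

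The 40 genes, the gene lists and the tests were chosen with earlier results of these data known. Alternatives were another pseudocount (10), no filter, quantile normalisation, the replicate number as a block, all 51 libraries in 1 fit, time-point means as the unit, array weights and leaving out replicates, single libraries, time points or the 2 libraries whose identifiers carry the prefix AL. Taking CT36 or CT40 as the base of the second run, and counting steps without those that touch CT8 or CT36, leaving out single libraries of CT4, CT8, CT36 and CT40, and a block by set of library identifier were chosen after seeing the data.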

Additional observations from a re-analysis of the deposited data

Results flagged for a closer look

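Of 154 groups of 4 libraries checked (22 mitosis genes at CT0, CT24, CT28, CT32, CT36, CT40 and CT48), 8 held 1 library far from the other 3 by a gap rule that flags about 1 group in 20 by chance. Mki67 was high in CT24 replicate 1, at 12341 against 10763 to 11002, and in CT32 replicate 3, at 14396 against 12735 to 12890. Nuf2 was high in the same CT24 library, at 1510 against 1283 to 1300. At CT48, Ccna2 was low in replicate 3 (3710 against 4084 to 4141), Cdc20 high in replicate 2 (2509 against 2064 to 2129) and Kif20a high in replicate 4 (2692 against 2271 to 2337). Cenpe was high in CT36 replicate 4 (2795 against 2469 to 2507), and Birc5 in CT0 replicate 3 (2209 against 2156 to 2159).

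The slope per 24 h from CT28 to CT48 was more negative than that from CT0 to CT24 in 36 of the 40 genes by the limma test of the difference. Among the genes with values given by library, the difference on the log2 scale was -1.43 for Nuf2, -1.27 for Ube2c, -1.19 for Depdc1a, -0.99 for Birc5, -0.82 for Bub1, -0.75 for Aurka, -0.71 for Ccna2, -0.71 for Cdk1, -0.69 for Tpx2, -0.68 for Bub1b, -0.68 for Cenpf, -0.66 for Top2a, -0.60 for Plk1, -0.53 for Cenpe, -0.50 for Racgap1, -0.50 for Kif20a, -0.45 for Kif11, -0.35 for Mki67 and -0.35 for Kif23. Without CT28 and CT32 the difference passed in 1 of the 40 genes.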

How the results depend on the processing

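The fall from CT0 to CT24 kept its direction in every member named by library under every alternative run, and its count of 40 was 34 to 40 when a replicate number was left out (34 without replicate 2) and 37 with all 51 libraries in 1 fit. With CT36 in place of CT28 as the base, the CT48 contrast gave 6 lower and 1 higher, and its sign turned in Cdc20 (0.0539), Mki67 (0.0154), Nek2 (0.23), Kif23 (0.0363) and Foxm1 (0.12). The line over CT0 to CT24 passed in 2 genes with all 51 libraries, 6 with time-point means, 5 without CT0 (Nek2 slope 0.0162) and 12 without CT24, against 34. The line over CT28 to CT48 passed in 1 gene without CT28 and CT32, with slopes of 0.0345 (Cdc20), 0.00341 (Mki67), 0.30 (Nek2) and 0.11 (Foxm1), and Nek2 had 0.11 without CT28 alone. The difference of lines passed in 1 gene without both. The 24 h rhythm passed in 0 to 1 members when a replicate number was left out (0 without replicate 3), 0 with time-point means, 3 without CT0, 2 without CT28, 2 without CT32, 5 without CT48 and 12 with array weights. The shares of all genes that passed the rhythm test in these settings are not given here. Steps of the first run summed to 8 falls and 0 rises. Leaving out a replicate number gave 1 to 23 falls (23 without replicate 4) and 0 to 2 rises, leaving out single libraries of CT4 and CT8 gave 5 to 27 and 0 to 6 (27 and 6 without CT8 replicate 4), all 51 libraries gave 0 falls, and leaving out the steps at CT8 gave 5. Steps of the second run summed to 48 falls and 27 rises, with 85 falls with all 51 libraries, 8 falls and 0 rises without the steps at CT36, and 14 to 22 rises when a replicate number was left out (14 without replicate 4) and 17 to 29 when a library of CT36 or CT40 was (17 without CT40 replicate 4). The cause of these changes was not tested, beyond the fewer steps or time points in each.

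With the replicate block, 40 genes fell in both contrasts of ends, the lines passed in 33 and 38, their difference in 36 and the rhythm in 1, and 1 rise was added among the steps of the first run. Same-numbered libraries of different time points had a median correlation of deviations of 0.0355 in the first run (over 0.1 in 25 of 78 pairs) and 0.00476 in the second (4 of 60 pairs), and 9 libraries in each run correlated best with their own number, so the numbers were not taken as pairs. Library identifiers fall into sets by their middle digit, and 4 libraries (replicates 2 and 3 of CT12 and CT20) belong to another set than their number. With sets in place of numbers and the 2 AL libraries left out, the medians were 0.0584 (over 0.1 in 30 of 73 pairs) and 0.00415 (4 of 55). A replicate block by set, added after seeing the data, gave 40 genes in both contrasts of ends, 33 and 39 for the lines, 36 for their difference, 1 for the rhythm and 1 rise among the steps of the first run.

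Limits are few libraries a time point, unnamed litters, an unstated normalisation that sets both runs to like means, unknown depth and whole-organ RNA. A further limit is that CT28 and CT32 stand apart over all genes, with CT44 and CT48 at the opposite end.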
